A study of Mus musculus with 12 samples.

Results

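Light zone B cells from the spleens of mice given CTLA4-Ig together with anti-CD40L were compared with light zone B cells from untreated mice. The comparison rests on the 3 light zone treated and the 3 light zone control libraries, taken by their sample titles, which are 6 of the 12 libraries of the study. The other 6 libraries hold dark zone cells. Both groups came from NZBWF1/J mice, a hybrid strain used as a model of lupus because it develops autoimmunity on its own. Each treated mouse had 6 doses of CTLA4-Ig at 200 ug and 6 doses of anti-CD40L at 250 ug. The doses were spread over 2 weeks, and the first was given at 18 weeks of age. Control mice had neither agent, and the labels give no age for them. No group had only 1 of the agents, so the effects of CTLA4-Ig and of anti-CD40L cannot be told apart. Every library was made from 1000 sorted cells. The labels do not say whether the libraries of a group came from separate mice, so each p-value reflects how far these libraries vary, which may be technical.

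In the light zone of a germinal center, B cells present antigen captured by their B cell receptor to helper T cells. The T cell gives help through CD40L, which engages CD40 on the B cell, and is itself costimulated through CD28 by CD80 and CD86 on the B cell. CTLA4-Ig is a fusion protein that binds CD80 and CD86, and anti-CD40L is an antibody to the ligand of CD40. Signals from CD40 run through TRAF adaptor proteins to the transcription factor NF-kB, and selected B cells return to the dark zone to divide or leave as memory or plasma cells.

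The light zone libraries held 17307186 to 26837714 counts, and counts were found for 11384 to 11757 of the 12212 listed symbols in the controls. Values below are CPM, counts scaled to a common library total after TMM scaling, a method that corrects for differences in RNA composition. By library totals alone, 3 counts correspond to 0.112 to 0.173 CPM, and lower values are under the detection floor, which covers counting error only. The TMM factors, given next, lower this floor in treated replicate 2 and raise it in the other 5 light zone libraries. Treated replicate 2 stood apart from the other 5 light zone libraries: 12195 symbols had counts in it, and its TMM factor was 1.441 against 0.8615 to 0.8879. The Pearson correlation of log2 CPM across genes was 0.820 to 0.853 among the controls and 0.706 to 0.756 between treated replicate 2 and the other 5 libraries. B cell genes were present in all 6 libraries, with Cd79a, a signalling chain of the B cell receptor, at 2193 to 3205 CPM in controls and 2125 to 3278 CPM in treated libraries. The zone label was checked with 2 genes of light zone cells. Cd83 stood at 361 to 655 CPM in light zone and 52.5 to 309 CPM in dark zone controls, and Cd86 at 171 to 233 against 11.1 to 58.6 CPM. Neither gene's light and dark zone ranges overlapped in the controls.

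The number of genes outside the control range differed between the treated libraries. A gene was counted when log2(CPM + 0.5) lay at least 2-fold above the highest or below the lowest control, among 12081 tested genes. Treated replicate 1 had 735 genes above (6.08%) and 859 below (7.11%). Replicate 2 had 2272 above (18.8%) and 1718 below (14.2%), and replicate 3 had 905 above (7.49%) and 972 below (8.05%). Set against only 2 controls, replicate 1 had 1048 to 1171 genes above and 1252 to 1346 below, where each control against the other 2 had 1037 to 1305 above and 781 to 1275 below. Replicate 3 (1276 to 1391 above, 1371 to 1460 below) lay near or past the upper end of the controls, and replicate 2 (2899 to 3083 above, 2073 to 2103 below) far past it. In all 3 treated libraries together, 112 genes (0.927%) were 2-fold above and 28 (0.232%) 2-fold below the control range, and in replicates 1 and 3 together 174 (1.44%) and 284 (2.35%).

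**Figure D1:**
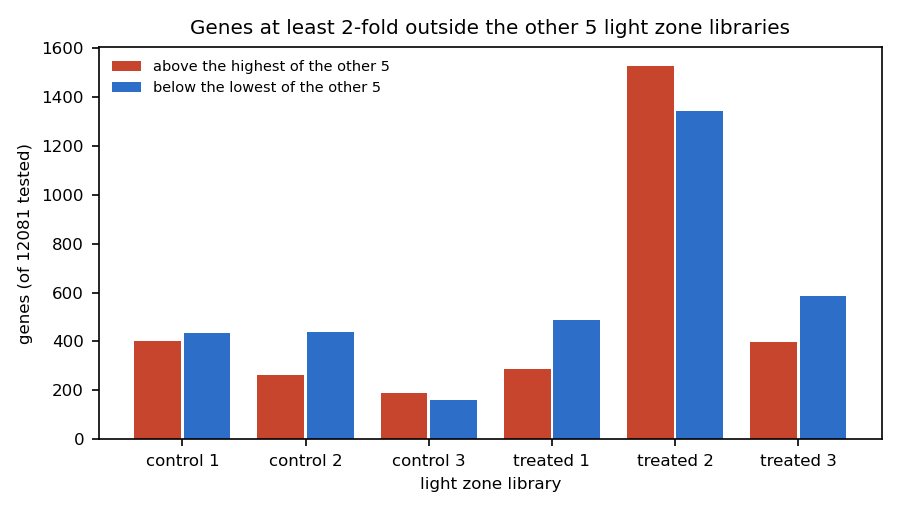
Bars give, for each light zone library on the x axis, the number of genes at least 2-fold above (red) or below (blue) all the other 5 light zone libraries. Treated replicate 2 had 1529 genes above and 1345 below, and the other 5 libraries had 187 to 403 above and 161 to 587 below.

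Several markers of other cells were higher in treated replicate 2 than in the other light zone libraries. C1qb and C1qc, subunits of the complement protein C1q made by macrophages, stood at 35.8 and 35.3 CPM there and at 0 in all 3 controls. Hba-a1, a hemoglobin chain of red cells, stood at 0.819, 87.01 and 0.310 CPM in treated replicates 1, 2 and 3 and at 0.131 to 1.07 CPM in controls. In the dark zone Hba-a1 was highest in an untreated library, control replicate 1, at 523.7 CPM. Cd4 and Cd8a, the T cell coreceptors, were at 0 in every control and at 5.38 and 2.71 CPM in treated replicate 2. As whole lists, the T cell markers summed to 212.1 to 413.9 CPM in controls, with 16 of 18 tested markers higher in treated libraries. Their sums were 388.5, 428.6 and 608.3 CPM in treated replicates 1, 2 and 3, so replicate 3 was the highest on the TMM scale. On that scale all tested genes summed to 693800 CPM in treated replicate 2 and to 1126000 to 1161000 CPM in the other 5 libraries. As shares of a library, marker sums in treated replicate 2 would therefore stand higher against the others, which can change their order. The T cell sum includes Lck, whose values are given further below and were lowest in replicate 3 among the treated libraries. Relative to the control mean on log2(CPM + 1), the median T cell marker lay at 0.11, 1.64 and 0.08 in treated replicates 1, 2 and 3. The macrophage and monocyte markers summed to 1351 to 1531 CPM in controls and 1080, 1396 and 1178 CPM in treated replicates 1, 2 and 3, with 17 of 22 higher. The sum of replicate 2 lay within the controls on the TMM scale, which need not hold for shares of a library. Red cell and platelet markers summed to 84.31 to 164.4 CPM in controls and 90.9, 317.1 and 89.5 CPM in treated replicates 1, 2 and 3, with 8 of 11 higher. The dendritic cell markers summed to 834.7 CPM in treated replicate 2, of which 705.6 CPM were Irf8, a factor that germinal center B cells also express, and to 163.5 to 321.2 CPM in the other 5 libraries. The natural killer cell markers summed to 25.57 CPM there and to 1.858 to 8.015 CPM in the others, while the neutrophil markers were lowest there, at 8.972 against 55.9 to 239.1 CPM. The median log2 difference of the T cell markers was 1.80, and 0.39 without treated replicate 2. It was 1.19 and 0.22 for the macrophage and monocyte markers, and 0.97 and -0.94 for the dendritic cell markers. The part of these cells in the differences below was not tested. Most list medians and some gene differences below are given with and without treated replicate 2.

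By edgeR, 0 of 12081 genes (0%) passed an adjusted p of 0.05, and the smallest adjusted p was 0.577. Before adjustment 889 genes (7.36%) had an edgeR p under 0.05, of which 704 (5.83%) were higher and 185 (1.53%) lower in treated cells. limma-voom called 0 genes with 703 under 0.05 before adjustment, while 216 genes (1.79%) passed in DESeq2, 189 higher (1.56%) and 27 lower (0.223%). Groups did not overlap for 155 of these 216, and a DESeq2 call can rest on a single library. C1qc, for example, passed (DESeq2 adjusted p 2.35e-08) with counts in treated replicate 2 alone among the light zone libraries. Without treated replicate 2 the DESeq2 calls numbered 533, of which 151 were higher and 382 lower. No other single library was left out in DESeq2, so how far any other would shift this split was not tested. Of all tested genes 54.1% had a log2 difference above 0 and 45.9% below. Groups did not overlap for 1366 genes (11.3%), 703 higher (5.82%) and 663 lower (5.49%). With library totals alone as the scale, chosen after seeing the data, that split was 941 to 484. Genes are therefore described by their values, and "higher" or "lower" is not a call unless DESeq2 is named. In libraries of pooled cells, more cells with a transcript and more transcript per cell cannot be told apart.

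The 12 genes highest in rank by edgeR p among those with higher, non-overlapping treated values were Siah2, Bscl2, Ddx31, Gtf2h4, Bag2, Fyn, Golga3, Rae1, Brd1, Gcfc2, Klhdc3 and Kmo. None passed edgeR (adjusted p 0.577 to 0.674), and all had a DESeq2 adjusted p of at most 0.000531. Siah2 (chr3:58674938-58692400, mm10, minus strand), a RING ubiquitin ligase, stood at 39.97, 39.4 and 44.6 CPM in control replicates 1, 2 and 3 and at 157, 160.2 and 114 CPM in treated replicates 1, 2 and 3. All 3 treated libraries were above all controls, replicate 2 included, and the log2 difference was 1.80 (SE 0.32). Rae1, an mRNA export and mitotic spindle factor, stood at 33.03, 26.9 and 18.3 CPM in controls and 72.8, 93.4 and 136 CPM in treated libraries (log2 difference 1.95, SE 0.40). The treated replicate farthest from the controls was replicate 3 for Rae1.

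Other genes of this set had low values in the light zone controls, and some were at or near the detection floor. Gtf2h4, a subunit of the general transcription factor TFIIH, stood at 0, 0.172 and 0.139 CPM in controls and 22.2, 18.4 and 23.1 CPM in treated libraries. Bag2, a co-chaperone of HSP70, stood at 0, 0 and 0.0463 and 35.6, 16.6 and 22.6 CPM. Kmo, kynurenine 3-monooxygenase of tryptophan breakdown, stood at 0.720, 1.55 and 4.22 and 68.7, 33.9 and 40.6 CPM. In dark zone controls these 3 genes stood at 3.08 to 18.6, 0.137 to 29.2 and 10.1 to 16.1 CPM, with Bag2 under the floor of 3 counts in dark zone control replicate 1, and there their control and treated groups overlapped. Klhdc3 stood at 0 to 0.185 CPM in light zone controls and 4.04 to 47.95 CPM in treated libraries, Ddx31, an RNA helicase, at 0.196 to 0.631 and 7.96 to 18.01 CPM, and Brd1, a bromodomain protein of histone acetyltransferase complexes, at 0.574 to 3.10 and 16.4 to 42.9 CPM. Golga3, a Golgi protein, stood at 0.523 to 1.85 and 10.9 to 43.2 CPM. Bscl2 (0.880 to 2.87 and 34.04 to 41.8 CPM) encodes seipin of lipid droplets. Its exons share 398 bases with Gng3, those of Gcfc2 1962 bases with Mrpl19, and those of Klhdc3 276 bases with Mea1, so reads of these genes can come from their neighbours.

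The 12 genes of the same rank with lower treated values were Zpbp2, Trim33, Rps19bp1, Wtap, Ufsp2, Lrif1, Krit1, 2310022B05Rik, Itgav, Zwint, A330069E16Rik and Tra2a. Each had an edgeR adjusted p of 0.674 and a DESeq2 adjusted p of at most 0.0330. Wtap (chr17:12966796-12994169, minus strand), a subunit of the m6A RNA methyltransferase complex, stood at 219, 178 and 152 CPM in controls and 68.2, 64.5 and 95.2 CPM in treated libraries. Krit1, a scaffold protein of cell junctions, stood at 48.9, 49.7 and 46.8 and 10.4, 13.5 and 2.27 CPM, and Itgav, the integrin alpha V chain, at 76.1, 67.6 and 51.9 and 9.42, 14.5 and 26.8 CPM. For all 3, every treated library was below every control, with log2 differences of -1.27 (SE 0.35), -2.47 (SE 0.70) and -1.95 (SE 0.56).

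Trim33, a chromatin-binding ubiquitin ligase, stood at 65.2, 126 and 73.3 CPM in controls and 33.2, 27.95 and 21.1 CPM in treated libraries, a log2 difference of -1.69 (SE 0.40). Zwint, a kinetochore protein, stood at 68.5 to 80.5 and 29.7 to 34.5 CPM, and Tra2a, a splicing regulator, at 32.8 to 185 and 16.3 to 25.2 CPM. Zpbp2 stood at 14.6 to 54.6 and 0.516 to 2.25 CPM, Lrif1, a nuclear receptor interacting protein, at 97.1 to 241 and 20.97 to 53.9 CPM, and Rps19bp1 at 85.3 to 152 and 24.2 to 47.2 CPM. No treated library reached the lowest control for any of them. Ufsp2, a protease of the ubiquitin-like modifier UFM1, stood at 84.02 to 182 and 32.8 to 47.3 CPM. Without treated replicate 2 the log2 differences were 1.72 for Siah2, -1.16 for Wtap and -2.93 for Krit1, with a direction that the choice of genes without overlap fixes. Of the 12 higher genes, 7 also had higher, non-overlapping treated values in the dark zone, and 8 of the 12 lower genes had lower ones. Of all genes without overlap in the light zone, 33.5% were non-overlapping in the same direction in the dark zone. The named genes were also picked by level and by p in a fit that holds the dark zone libraries, so these shares are not directly comparable.

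**Figure D2:**
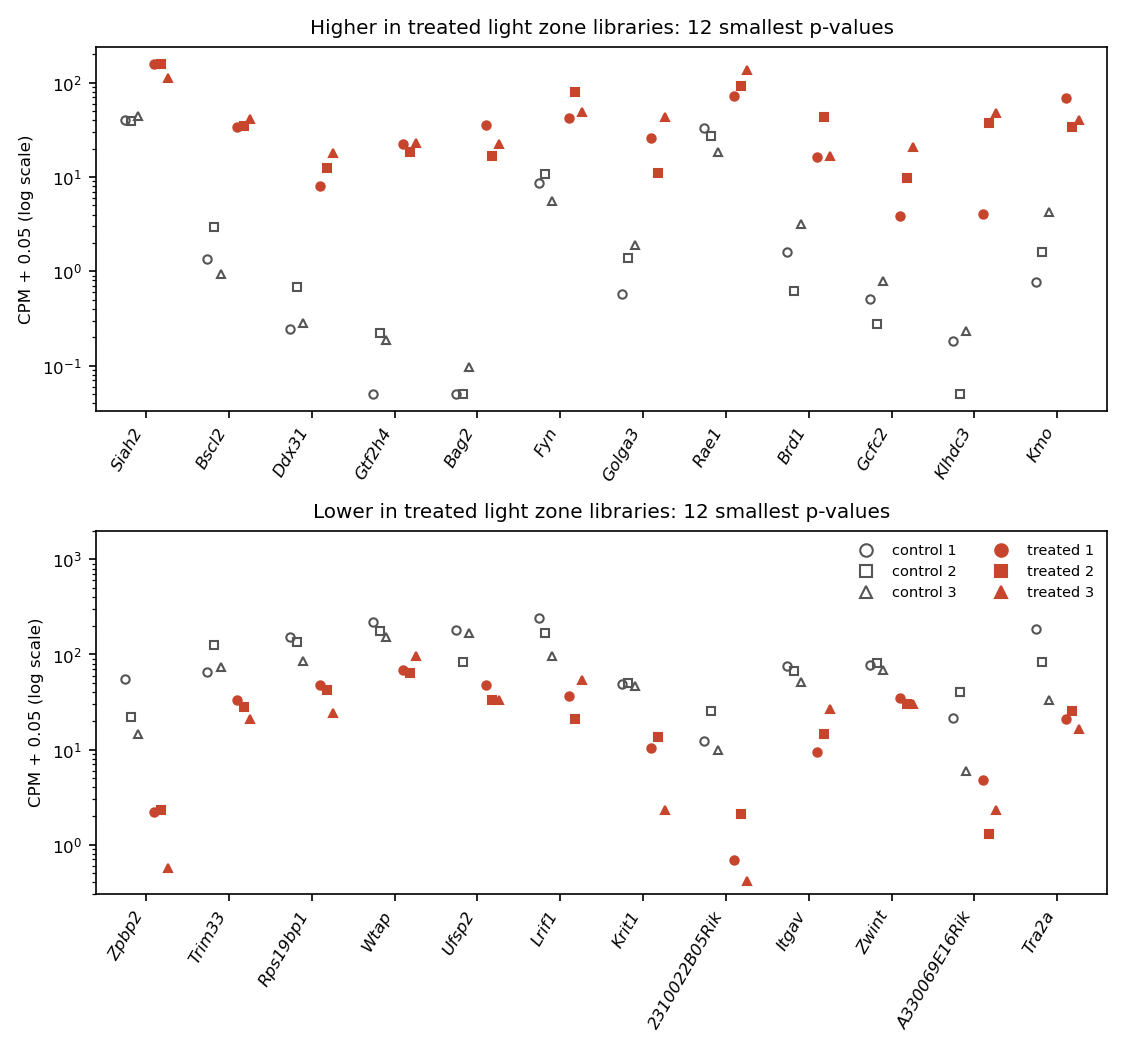
Each point is 1 light zone library (grey open, control; red filled, treated), with CPM + 0.05 on a log scale, for the 12 higher (top) and 12 lower (bottom) genes with the smallest edgeR p-values. The groups do not overlap because the genes were picked that way; Siah2 lies at 39.4 to 44.6 CPM in controls and 114 to 160.2 CPM in treated libraries.

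Genes of T cell help were not moved in a single direction. Of 25 tested genes of costimulation and the CD40 pathway, 0 passed edgeR, 18 were higher and 7 lower, and 3 were higher without overlap, against 5.82% of all genes. The median log2 difference was 0.79, against 0.10 over all tested genes, and 0.24 without treated replicate 2. Cd40 stood at 105, 81.4 and 59.9 CPM in control and 109.6, 116 and 100.4 CPM in treated replicates, a log2 difference of 0.40 (SE 0.37). Cd86, a ligand that CTLA4-Ig binds, stood at 233, 171 and 192 and 240.3, 108 and 121 CPM (log2 difference -0.34, SE 0.62). The ranges overlapped for both genes. Cd80, the other such ligand, was at or below 0.0463 CPM in all light zone libraries except treated replicate 2 (1.19 CPM). Icosl, the ligand of the T cell receptor ICOS, stood at 5.23, 0.976 and 4.63 CPM in controls and 8.13, 27.7 and 1.39 CPM in treated libraries, which overlapped.

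The 3 non-overlapping members were Traf5, Ikbkg and Il21r, named after their values were seen. Traf5 (chr1:191997205-192092559), an adaptor that binds CD40, stood at 7.78, 3.67 and 17.00 CPM in controls and 73.6, 54.4 and 63.7 CPM in treated libraries. All treated libraries were above all controls by a wide margin, with a log2 difference of 2.75 (SE 0.68) and a DESeq2 adjusted p of 0.00455. Il21r, the receptor of the T cell cytokine IL-21, stood at 8.44, 17.7 and 11.6 and 26.5, 266 and 88.3 CPM. Its log2 difference was 3.33 (SE 0.84, DESeq2 adjusted p 0.00424) and dropped to 2.18 without treated replicate 2, the highest library. Ikbkg, the regulatory subunit of the IKK kinase, stood at 9.55, 2.35 and 1.67 CPM in controls and 33.6, 20.97 and 10.6 CPM in treated libraries. Tnfrsf13c, the BAFF receptor, stood at 214, 392 and 306 and 232, 858 and 485 CPM with overlap.

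**Figure D3:**
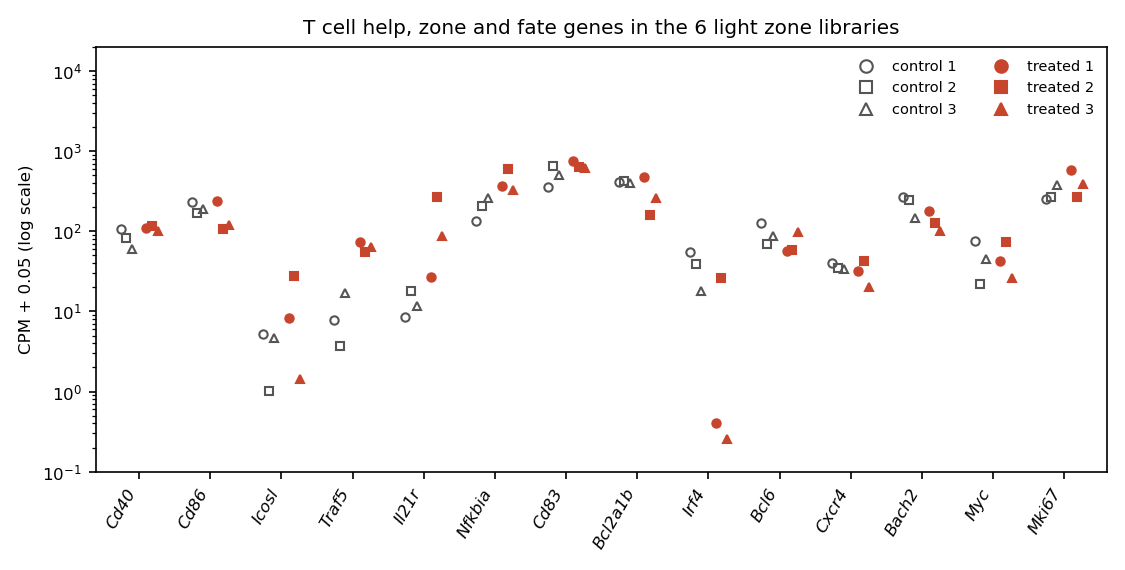
Each point is 1 light zone library (grey open, control; red filled, treated), with CPM + 0.05 on a log scale, for 14 genes of T cell help, zone identity and cell fate. Traf5, Il21r and Nfkbia lie higher in all treated libraries, and the groups overlap for the other 11 genes.

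Among 30 tested targets of CD40 and NF-kB, 18 were higher and 12 lower, with a median log2 difference of 0.17 (0.01 without treated replicate 2). In each direction 1 of the 30 did not overlap, against 5.82% of all genes higher and 5.49% lower, so the list held no excess of such genes. Nfkbia, which encodes the NF-kB inhibitor IkB-alpha and is itself induced by NF-kB, was the only member higher without overlap. It stood at 136, 207 and 259 CPM in controls and 369.5, 596 and 329 CPM in treated libraries, with treated replicate 2 the highest. The log2 difference was 1.11 (SE 0.37, edgeR adjusted p = 0.674) and 0.81 without that library. Birc2, an inhibitor of apoptosis protein, was lower without overlap, at 35.8, 27.7 and 38.6 and 15.7, 17.3 and 19.98 CPM. Bcl2a1b, an anti-apoptotic BCL2 relative, stood at 416, 425 and 402 CPM in controls and 479, 160.3 and 259 CPM in treated libraries, where replicates 2 and 3 were below and replicate 1 above all controls. Traf1 and Nfkb2, other targets, had overlapping groups at 3.90 to 50.04 and 5.67 to 78.3 CPM, and 0.327 to 12.97 and 0.671 to 66.3 CPM.

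The promoter of Nfkbia is shown because this NF-kB target was higher in every treated library. The 250 bases before its start, chr12:55492648-55492897 on the minus strand (GRCm38.p6, from RefSeq), are printed with the kB-like motif in capitals. The motif was GGGA, any 4 bases and CC, searched on both strands.
Nfkbia promoter: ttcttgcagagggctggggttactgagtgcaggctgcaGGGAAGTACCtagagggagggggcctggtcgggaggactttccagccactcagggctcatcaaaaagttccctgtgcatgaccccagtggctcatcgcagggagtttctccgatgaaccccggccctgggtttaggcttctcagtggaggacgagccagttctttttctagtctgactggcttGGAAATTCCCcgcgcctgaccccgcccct
The motif was found at 212 to 203 bases before the start on the gene's own strand and at 29 to 20 bases on the opposite strand. Of the 25 list members with a RefSeq promoter, 10 (40.0%) held the motif, against 5317 of all 27025 promoters of this length (19.7%) and 25.6% of the promoters of tested genes. A match is a description of these letters and was not measured as binding.

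Genes of zone identity and of the germinal center state overlapped for the most part. Of 28 tested light zone genes 15 were higher and 13 lower (median log2 difference 0.17, and -0.14 without treated replicate 2). Of 20 dark zone genes 12 were higher and 8 lower (median 0.22, and 0.33 without it). Cd83 stood at 361, 655 and 508 CPM in controls and 755, 628 and 617 CPM in treated replicates (log2 difference 0.39, SE 0.52). Cxcr4, a chemokine receptor of dark zone cells, stood at 39.8, 34.8 and 34.3 and 31.8, 42.6 and 19.9 CPM. The treated libraries lay across the upper end of the control range for Cd83 and on both sides of it for Cxcr4. Mki67, a marker of dividing cells, stood at 251 to 381 and 269 to 581 CPM.

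Of 22 tested core genes of the germinal center, 15 were higher, 7 lower and 4, named after their values were seen, higher without overlap, against 5.82% of all genes (median 0.32, and 0.25 without treated replicate 2). Bcl6, the transcription factor that defines these cells, stood at 126, 68.9 and 86.7 CPM in controls and 57.2, 59.1 and 97.8 CPM in treated libraries, which overlapped. Klhl6, a ubiquitin ligase adaptor, stood at 147, 426 and 399.5 and 575, 682 and 946 CPM (log2 difference 1.18, SE 0.40). Spib, a B cell transcription factor, stood at 65.02, 35.3 and 41.9 and 95.8, 327 and 93.4 CPM, and its log2 difference of 1.86 (SE 0.61) dropped to 1.001 without treated replicate 2. Ezh2, the histone H3 methyltransferase of Polycomb, stood at 49.7, 40.5 and 68.3 CPM in controls and 129, 86.3 and 96.5 CPM in treated libraries (log2 difference 0.98, SE 0.40). For all 3, the lowest treated library was above the highest control, and the fourth such gene was Elk3 (4.99 to 20.7 and 22.3 to 44.9 CPM).

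Fate regulators varied between libraries. Irf4, a factor induced by CD40 and antigen receptor signals and needed for plasma cells, stood at 54.7, 39.3 and 17.7 CPM in controls and 0.351, 26.4 and 0.206 CPM in treated libraries. Treated replicates 1 and 3 were near the floor, while replicate 2 lay inside the control range. Prdm1, which encodes the plasma cell factor Blimp-1, stood at 12.2, 0.574 and 40.03 and 5.15, 11.6 and 1.91 CPM, and Myc, a growth regulator of selected cells, at 75.6, 21.8 and 44.5 and 42.1, 72.9 and 25.96 CPM. Bach2, which opposes plasma cell formation, stood at 266, 243 and 146 CPM in controls and 179, 125 and 101 CPM in treated libraries (log2 difference -0.69, SE 0.38). All 4 genes had overlapping groups. Mir155hg, the host transcript of miR-155 and named after its values were seen, stood at 37.2, 5.91 and 14.6 CPM in controls and 0, 1.55 and 0 CPM in treated libraries, with no overlap and a DESeq2 adjusted p of 0.0349. Of 17 plasma cell genes 8 were higher and 9 lower. Only 1 of the 17 had groups that did not overlap, near the share of 5.49% of all genes that were lower without overlap. It was Jchain, the joining chain of secreted antibody, at 9189, 10069 and 11324 and 7960.2, 1109 and 8938 CPM, and treated replicate 2 was the lowest by far.

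Genes of B cell receptor signalling leaned higher, mostly through treated replicate 2. Of 35 tested members 28 were higher, 7 lower and 7 higher without overlap, against 5.82% of all genes. The median log2 difference was 0.83 with all libraries and -0.01 without treated replicate 2. The receptor chains themselves overlapped: Cd79b stood at 1386, 1672 and 1949 CPM in controls and 1789, 1612 and 2650.1 CPM in treated libraries. Fyn (chr10:39368855-39565381), a SRC-family kinase of lymphocytes, stood at 8.57, 10.8 and 5.51 and 41.9, 79.1 and 48.9 CPM. Its log2 difference was 2.77 (SE 0.54, DESeq2 adjusted p 1.62e-06) and 2.45 without treated replicate 2. Lck, the T cell kinase of the same family, stood at 92.3, 197 and 141 CPM in controls and 206, 249.1 and 152 CPM in treated libraries, and Cd3e, a T cell receptor chain, at 0.981, 0.746 and 1.99 and 0.936, 10.6 and 1.19 CPM.

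Other non-overlapping members of the receptor pathway included Btk, Plcg2, Pik3ap1, Rasgrp3 and Cd72, named after their values were seen. Rasgrp3, an activator of RAS downstream of the receptor, stood at 73.4, 92.98 and 89.1 CPM in controls and 168, 187 and 157 CPM in treated libraries. Its treated values lay close together, and the log2 difference was 1.002 (SE 0.32). Btk, the kinase that activates phospholipase C, stood at 7.39, 7.46 and 28.6 and 37.2, 57.5 and 52.9 CPM, and Plcg2, that phospholipase, at 115, 38.5 and 88.2 and 144, 229.7 and 142 CPM.

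Antigen presentation genes held members on both sides in each MHC class. Of 14 tested MHC class II genes 8 were higher and 6 lower, and 2 were higher without overlap, against 5.82% of all genes (median 0.08, and 0.17 without treated replicate 2). H2-Ab1, the class II beta chain, stood at 907, 1031 and 1136 CPM in controls and 1328, 2366 and 1526 CPM in treated libraries, and Ciita, the master regulator of class II transcription, at 16.5, 8.90 and 5.93 and 28.3, 189.6 and 40.9 CPM. Both were higher without overlap, and treated replicate 2 was the highest library for each. Without it the log2 differences dropped from 0.76 to 0.48 for H2-Ab1 and from 3.05 to 1.73 for Ciita. H2-Aa, the class II alpha chain, overlapped at 4012 to 5824 and 3222 to 5436 CPM. Of 21 class I genes 14 were higher and 7 lower, and 2 were lower without overlap, against 5.49% of all genes (median 0.59, and -0.12 without treated replicate 2). B2m, the shared light chain of class I molecules, was lower without overlap, at 4138, 4027 and 4912 CPM in controls and 3805, 1059.8 and 3491 CPM in treated libraries, with replicate 2 lowest. Nlrc5, the class I transactivator, was also lower without overlap, at 8.31, 28.6 and 11.5 and 8.19, 8.27 and 4.65 CPM.

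Interferon-stimulated genes did not move as a block. Of 37 tested members 21 were higher and 16 lower, and 4 in each direction did not overlap, against 5.82% of all genes higher and 5.49% lower. The median log2 difference was 0.48 with all libraries and -0.36 without treated replicate 2. The lower members were Ifi27, Ifi27l2a, Xaf1 and Sp100. Ifi27l2a stood at 535, 372 and 444 CPM in controls and 251, 82.9 and 159 CPM in treated libraries (log2 difference -1.45, SE 0.46). Ifi27, a related mitochondrial protein gene, stood at 141, 87.4 and 120.3 and 58.03, 33.04 and 47.3 CPM, and Xaf1, a pro-apoptotic factor, at 62.3, 42.99 and 52.4 and 35.1, 9.85 and 23.1 CPM. Treated replicate 2 was the lowest library for all 3 genes, and replicates 1 and 3 were also below every control. Sp100, a nuclear body protein, stood at 292, 240.4 and 200.5 CPM in controls and 181, 95.9 and 139.8 CPM in treated libraries. The 4 higher members were Oasl1, Rsad2, Usp18 and Ifih1, which had 0 to 1.32 CPM in controls, and Ifih1, a sensor of viral RNA, stood at 16.03, 1.63 and 0.258 CPM in treated libraries. A promoter match to GAAA, any 2 bases and GAAA, a form of the interferon response element sought on both strands, was found for 12 of the 29 members with a RefSeq promoter (41.4%), against 936 of all 27025 promoters (3.46%) and 3.31% of the promoters of tested genes. Among the members without overlap, Rsad2 held a match, and Xaf1, Sp100, Oasl1 and Ifih1 did not. No promoter was available for Ifi27, Ifi27l2a and Usp18.

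Genes of oxidative phosphorylation were lower in the median, and most of that rested on treated replicate 2. Of 77 tested members 12 were higher and 65 lower, and 16 were lower without overlap, against 5.49% of all genes. The median log2 difference was -0.53 (-0.14 without treated replicate 2). Taken by library on log2(CPM + 1), the median distance from the control mean was -0.08, -2.09 and -0.17 in treated replicates 1, 2 and 3. Cox7c, a subunit of cytochrome c oxidase, stood at 1565, 1534 and 1421 CPM in controls and 1248, 174 and 1125 CPM in treated libraries, and Ndufv3, a complex I subunit, at 415, 397 and 279 and 269, 86.8 and 183 CPM. Replicates 1 and 3 lay below the lowest control for both genes, by far less than replicate 2 did. Without replicate 2 the log2 differences were -0.34 for Cox7c and -0.68 for Ndufv3.

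Ribosomal protein genes were lower in treated replicates 2 and 3. Of 79 tested members 6 were higher and 73 lower, and 24 were lower without overlap, against 5.49% of all genes. The median log2 difference was -0.52, and -0.28 without treated replicate 2. The list's median distance from the control mean was -0.13, -1.19 and -0.42 in treated replicates 1, 2 and 3, and 0.08, 0.10 and -0.17 in control replicates 1, 2 and 3, so treated replicate 1 lay within the controls. Rps12, of the small subunit, stood at 434, 449 and 275 CPM in controls and 246, 244 and 173 CPM in treated libraries, with replicate 3 lowest (log2 difference -0.81, SE 0.36). Rpl12 and Rpl32, of the large subunit, stood at 461, 465 and 355 CPM against 323, 227 and 221 CPM and at 3504, 3221 and 2389 CPM against 2198, 1373 and 1889 CPM. Exons of Rpl12 share 56 bases with Lrsam1 and those of Rpl32 53 bases with Cand2, and reads of near-identical pseudogenes can be split among copies.

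The low values of treated replicate 2 went with transcript length, a pattern sought after seeing the data. Among genes with a control mean of at least 10 CPM, the 1664 with the shortest transcripts (174 to 1972 nucleotides, by the longest annotated one) had a median of -1.03 in treated replicate 2, on log2(CPM + 1) relative to the control mean. The same genes had -0.02 in treated replicate 1 and -0.06 in replicate 3. In the 3 groups of longer transcripts, of like size, treated replicate 2 had -0.11, -0.05 and -0.07. The median transcript length was 1059 nucleotides in the ribosomal list and 1141 in the oxidative phosphorylation list, against 3302 over all tested genes. Whether length accounts for the list values in that library was not tested.

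**Figure D4:**
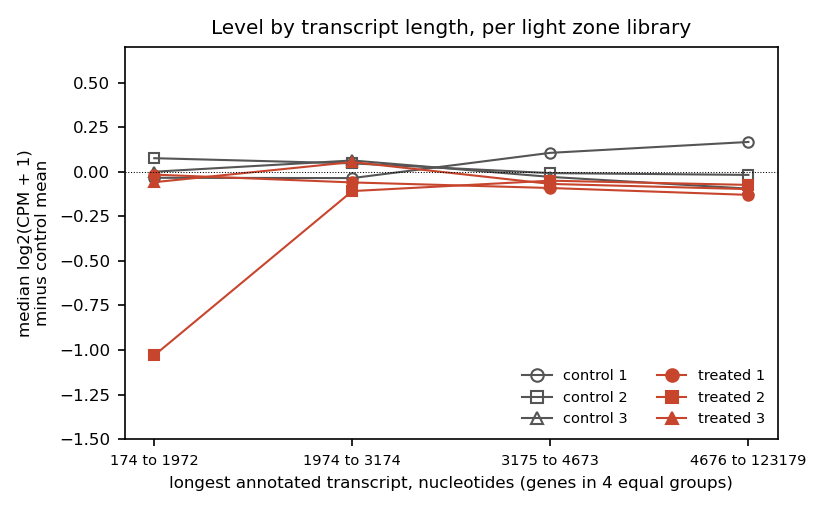
Lines join the medians of log2(CPM + 1) minus the control mean (y axis) over 4 equal groups of genes by longest annotated transcript in nucleotides (x axis), with 1 line per light zone library (grey, control; red, treated). Treated replicate 2 lies at -1.03 in the group of shortest transcripts, and all other points lie between -0.13 and 0.17.

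Other metabolic genes were mixed. Of 25 tested genes of cholesterol synthesis 18 were higher and 7 lower, with a median log2 difference of 0.36 (0.43 without treated replicate 2). Cyp51, the lanosterol demethylase, stood at 40.9, 14.98 and 57.4 CPM in controls and 133, 103 and 200.0 CPM in treated libraries, with replicate 3 highest and no overlap. The log2 difference was 1.94 (SE 0.49, DESeq2 adjusted p 0.014), and exons of Cyp51 share 166 bases with Akap9. In dark zone libraries Cyp51 overlapped, at 75.7 to 120.1 CPM in controls and 67.3 to 90.96 CPM in treated libraries, and the difference between the zones did not pass edgeR. Of 23 glycolysis genes 16 were higher and 7 lower (median 0.43, and -0.38 without treated replicate 2). Hk1, a hexokinase, stood at 0.327, 0.459 and 0.556 CPM in controls and 11.9, 22.5 and 7.54 CPM in treated libraries, without overlap, and Gapdh overlapped at 709 to 2103 and 1487 to 2826 CPM. Of 24 genes of the TCA cycle 15 were higher and 9 lower, and Fh1, fumarate hydratase, stood at 125, 93.7 and 165 and 188, 188 and 244 CPM without overlap.

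RNA splicing factors held members on both sides. Of 36 tested, 19 were higher and 17 lower, with 4 higher and 6 lower without overlap, against 5.82% and 5.49% of all genes (median 0.05, and -0.17 without treated replicate 2). Sf3b1, the largest U2 snRNP protein, stood at 190.0, 229 and 359.6 CPM in controls and 408, 524 and 965 CPM in treated libraries (log2 difference 1.28, SE 0.37). Hnrnpr, an RNA-binding protein, stood at 186, 211 and 107 and 59.4, 88.3 and 67.4 CPM (log2 difference -1.23, SE 0.36). Snrpd1 and Snrpe, core proteins of the spliceosomal particles, were lower without overlap, at 816 to 924 against 154 to 748 CPM and 675 to 971 against 124 to 604 CPM, with treated replicate 2 lowest. Of 25 genes of the unfolded protein response 15 were higher and 10 lower (median 0.09, and -0.19 without treated replicate 2). Ddit3, the stress factor CHOP, stood at 47.03, 24.6 and 29.5 CPM in controls and 0.234, 3.88 and 0.0516 CPM in treated libraries, without overlap, although in dark zone controls it was at 0.206 to 14.00 CPM.

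**Figure D5:**
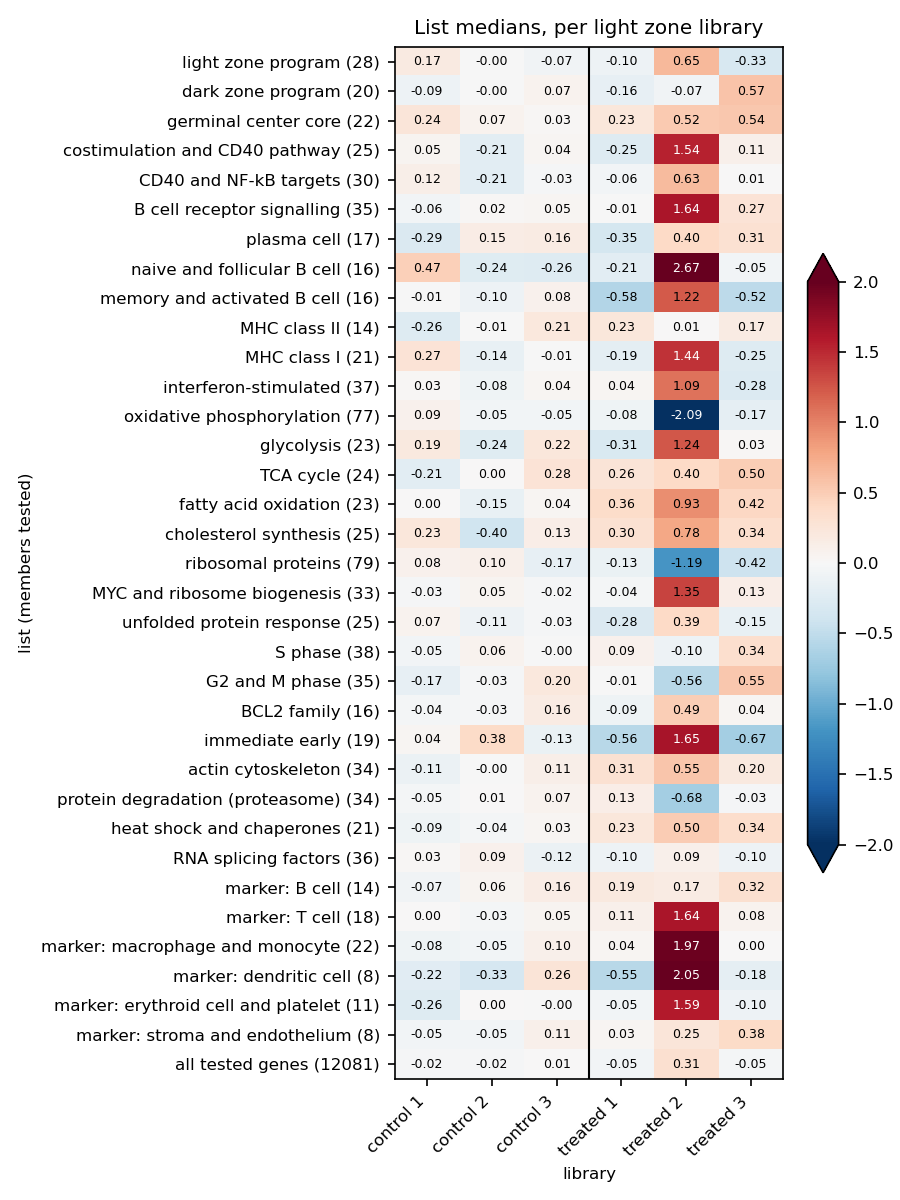
Each cell gives the median over the tested members of a list (rows, number tested in brackets) of log2(CPM + 1) minus the control mean, in 1 light zone library (columns). Treated replicate 2 departs most, from -2.09 for oxidative phosphorylation to 2.67 for naive and follicular B cell genes, while treated replicates 1 and 3 lie between -0.67 and 0.57.

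Cytoskeletal genes showed the gap between treated libraries. Actb, beta-actin, stood at 2610.0, 3222 and 3672 CPM in controls and 4251, 12342 and 3985 CPM in treated libraries, without overlap. Its log2 difference was 1.11 (SE 0.62) and dropped to 0.38 without treated replicate 2. Tmsb4x, a thymosin that sequesters actin monomers, stood at 29917, 25812 and 28184 and 25894, 6166 and 24083 CPM, with replicate 2 far below the other 5 libraries. Arpc4, of the ARP2/3 complex, stood at 245, 196 and 241 CPM in controls and 372, 390.0 and 354 CPM in treated libraries, and the 3 treated values lay close together. Its log2 difference was 0.71 (SE 0.28), and its exons share 283 bases with Ttll3. Itgb2, the integrin beta 2 chain of lymphocytes and myeloid cells and named after its values were seen, stood at 44.8, 42.99 and 25.9 and 109, 185 and 152 CPM.

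The treatment difference in the light zone was set against that in the dark zone by an interaction term. By edgeR 0 genes (0%) passed (smallest adjusted p 1), 275 (2.28%) were under 0.05 before adjustment, and DESeq2 called 16 (0.132%). Dark zone groups did not overlap for 2866 genes (23.7%), and 458 genes (3.79%) were non-overlapping in the same direction in both zones, which is 33.5% of the light zone and 16% of the dark zone set. Siah2 stood at 30.5 to 49.01 CPM in dark zone controls and 91.8 to 108 CPM in treated libraries, and Ifi27l2a at 457 to 727 and 98.4 to 238 CPM. Dark zone treated replicates 1 and 2 resembled light zone treated replicate 2, lying at 123.3 and 121 beside its 138 on the first principal component (31.3% of the variance), where the other 9 libraries lay between -82.99 and 2.659.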

How the data were processed

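cDNA from 1000 sorted cells per library was made with SMART-Seq v4 and sequenced after Nextera XT preparation, per the labels' protocols, which keep no strand and add no molecular identifiers. The authors deposited expected counts per gene symbol; BWA and mm10 are named per the submitters' processing notes, and no source used here names the counting program, annotation or gene filter. Deposited values are whole or end midway; the latter were rounded up, and blanks were read as 0. No source used here says how midway values arose; if they are averages over transcripts, they are not counts per gene. All 12 libraries entered 1 fit in edgeR 4.0.16 (R 4.3.3; quasi-likelihood test, robust, TMM, filterByExpr with a minimum count of 10 and total of 15, which kept 12081 genes), with a term per group and no block. Two-sided p-values were adjusted by Benjamini-Hochberg over all tested genes at 0.05. The SE is the absolute log2 difference divided by the square root of F. DESeq2 1.42.0, limma 3.58.1 (voom with quality weights), other scalings, filters and subsets of libraries were alternatives. DESeq2 gave no adjusted p for 387 genes. The fits were tested on simulated data.

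Positions and transcript lengths come from GENCODE M21 on mm10, where 11828 of the tested symbols were found. Lists (36) and named genes were chosen with earlier results of these data known, so their directions are not independent evidence. Named genes are the 12 per direction with the smallest edgeR p among non-overlapping genes whose higher group averaged 10 CPM or more, up to 5 members per list by control level, 5 genes per treated library and direction with the largest gap to the other libraries at 20 CPM or more, and fixed genes. List members named for their lack of overlap were chosen after their values were seen. Some named genes are not reported here.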

Additional observations from a re-analysis of the deposited data

How the results depend on the processing

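edgeR called 0 genes in the light zone under every setting tried, with 426 to 1135 genes under 0.05 before adjustment, and 0 interaction genes. Its smallest adjusted p ranged from 0.139 (without control replicate 3) to 0.961 (light zone libraries only). limma-voom also called 0. DESeq2 called 216 genes, 93 on the 6 light zone libraries (84 higher, 9 lower), 533 without treated replicate 2 and 432 without that library and dark zone treated replicates 1 and 2 (133 higher, 299 lower). Its interaction calls numbered 16 with all libraries, 400 without treated replicate 2 and 230 without those 3 libraries. Genes without overlap numbered 1130 to 1680 higher and 1052 to 1445 lower when 1 light zone library was left out, and 1355 and 1376 without the 3 libraries, where fewer values have to separate. The median log2 difference over all genes was 0.10, and 0.39 with library totals as the scale, 0.08 with RLE, -0.07 with limma-voom and -0.05 without treated replicate 2, so a list's median is read against that of all genes. Differences near 0 changed sign: Cd86 with a term for the 3 libraries (0.0028), Cxcr4 with library totals (0.16) and over single libraries left out (-0.48 to 0.032, the latter without treated replicate 3), and Myc on the light zone libraries (0.047), with library totals (0.40) and over single libraries left out (-0.47 to 0.50); the cause was not tested. With replicate number as a block, edgeR called 0 genes (smallest adjusted p 0.866), 0 interaction genes, and changed no call. Deviations of same-numbered control and treated libraries correlated at 0.0315, -0.0305 and -0.007, so the numbers were not taken to pair control with treated libraries. The labels do not say whether same-numbered light and dark zone libraries share a mouse, which was not tested. Depth limits genes near 3 counts, and with 3 libraries a group an exact permutation test cannot go below p = 0.1.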

Other observations

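Genes in which 1 library stood apart from the other 5 were looked up only for the treated libraries, although single controls also had 187 to 403 genes at least 2-fold above and 161 to 439 below the other 5. In treated replicate 1, Pde7a, a cAMP phosphodiesterase, stood at 0.175 CPM against 42.1 to 75.05 CPM in the other 5. Tnfsf9, the ligand 4-1BBL, stood at 0.292 CPM there against 33.0 to 116 CPM, and Clp1, an RNA kinase, at 0.117 CPM against 27.7 to 101 CPM. In treated replicate 3, Acp5, an acid phosphatase, stood at 0.206 CPM against 64.9 to 153 CPM, while Oas1b, an interferon-induced gene, stood at 30.7 CPM against 0 to 0.827 CPM and Cd93, a C-type lectin receptor, at 28.7 CPM against 0 to 0.468 CPM. In treated replicate 2, Spc25 and Cenpk, which encode kinetochore proteins, stood at 28.9 and 10.8 CPM against 388 to 511 and 169.6 to 276 CPM.

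Several genes outside the lists, named after their values were seen, lay apart in every treated library. Fuca1, a lysosomal fucosidase, stood at 28.2, 34.7 and 48.1 CPM in controls and 107, 113 and 166 CPM in treated libraries, and Flad1, the FAD synthase, at 1.24, 1.78 and 4.49 and 73.7, 44.7 and 44.1 CPM. Ly96, which encodes the TLR4 co-receptor MD-2, stood at 184, 165 and 159 CPM in controls and 56.7, 15.2 and 49.96 CPM in treated libraries. Mrpl48, a mitochondrial ribosomal protein, stood at 197, 149.7 and 139.7 and 59.96, 40.4 and 68.9 CPM. DESeq2 called Fuca1 (adjusted p 0.0112) and Flad1 (0.000531), and edgeR called none of the 4.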
